A study of Mus musculus with 6 samples.

Results

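Cilp and 9 matricellular genes (Postn, Sparc, Tnc, Thbs1, Thbs2, Thbs4, Tgfbi, Vcan and Comp) were followed through myoblast differentiation and 4-phenylbutyric acid treatment. They were taken from the deposited count table by gene symbol, and all 10 were among its 43074 symbols. Cilp was chosen by its measured rise in counts between day 0 and day 4 in these libraries, and the list around it was drawn up with earlier results known. Differences between day 4 and day 0 are therefore given for the members as a description, with no test, while the comparison of the drug with its vehicle was tested.

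C2C12 is an established mouse myoblast line, labelled wild type, whose cells fuse into myotubes when serum is withdrawn. Untreated cells at day 0, in growth medium with fetal bovine serum, were compared with cells kept for 4 days in horse serum differentiation medium. That medium held either the vehicle DMSO or 4-PBA (4-phenylbutyric acid, 1 mM), an aromatic fatty acid that inhibits histone deacetylases and acts as a chemical chaperone. Each of the 3 groups had 2 RNA sequencing libraries of total RNA, all with the same batch number, and the time in differentiation medium separates both day 4 groups from day 0. No vehicle-treated day 0 library was analysed here. The labels do not say whether the libraries of a group came from separate cultures, so the p-values measure only the spread between these libraries. Total counts ranged from 47908926 to 74697397 per library.

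Matricellular proteins are secreted into the extracellular matrix but act mainly on how cells attach, signal and migrate, and they are typically abundant in development and repair. In skeletal muscle, periostin, tenascin-C, SPARC and the thrombospondins are known from regenerating and fibrotic tissue, and versican from the matrix that surrounds myoblasts before they fuse. Cilp, the cartilage intermediate layer protein, is a secreted glycoprotein best known from cartilage that binds TGF-beta1 and dampens its signalling. In RNA from whole cultures, fewer cells of a type and less RNA per cell cannot be told apart.

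Levels are given as CPM, a count divided by the library total after TMM scaling. Together the 10 genes took 0.368% and 0.371% of the counts at day 0. They took 0.763% and 0.734% under DMSO, and 0.733% and 0.730% under 4-PBA. The share was thus higher in all 4 day 4 libraries than in both day 0 libraries, and Sparc, Thbs1 and Tnc held most of it.

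**Figure D1:**
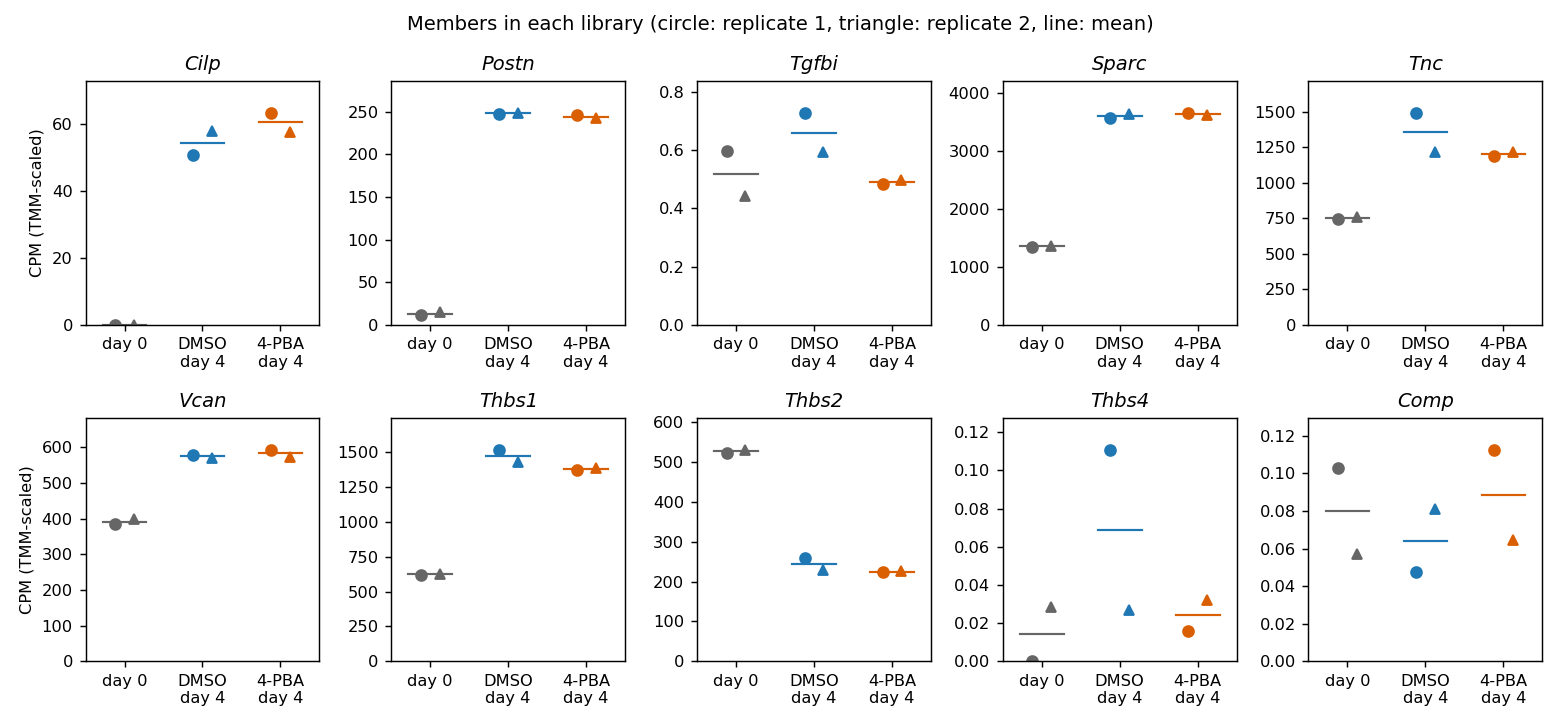
CPM of the 10 members in each library (y axes, linear from 0, a separate scale per gene), by group (x axes); circles are replicate 1, triangles replicate 2 and lines the means of 2 libraries. Cilp lies at 0 and 0.0570 CPM at day 0 and between 50.7 and 63.2 CPM in the 4 day 4 libraries, and Thbs2 is the only member with all day 4 libraries below both day 0 libraries.

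Cilp was nearly absent at day 0, with 0 and 4 counts (0 and 0.0570 CPM). At day 4 it stood at 50.7 and 57.8 CPM under DMSO and at 63.2 and 57.5 CPM under 4-PBA. All 4 day 4 libraries lay far above both day 0 libraries, and the DMSO and 4-PBA libraries overlapped. The ratio of pooled scaled counts to day 0 was 1619 under DMSO (exact 95% interval 632 to 5943, counting error only) and 1792 under 4-PBA (700 to 6580). Both ratios rest on the 4 day 0 counts, all from replicate 2. Per kilobase of its longest protein-coding transcript, Cilp ranked 5267th of 36520 genes under DMSO and 21940th at day 0.

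Periostin and Tgfbi are paralogous fasciclin-domain proteins that bind integrins and collagen. Postn stood at 11.8 and 14.4 CPM at day 0, at 248 and 249 CPM under DMSO and at 246 and 243 CPM under 4-PBA. It was the member with the largest difference from day 0 after Cilp, a log2 fold change of 4.22 (SE 0.0573) under DMSO and 4.20 (SE 0.0573) under 4-PBA. The 4 day 4 libraries ran from 243 to 249 CPM, and those under 4-PBA lay just below those under DMSO. Tgfbi, named for its induction by TGF-beta, had only 29 to 46 counts in any library. Its levels were 0.597 and 0.442 CPM at day 0, 0.729 and 0.593 CPM under DMSO and 0.483 and 0.499 CPM under 4-PBA, and the day 0 libraries overlapped both other groups. The pair thus moved apart: within a library, which needs no scaling between libraries, the ratio of Postn to Tgfbi counts was 19.8 and 32.7 at day 0, 340 and 420 under DMSO and 510 and 486 under 4-PBA.

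Sparc encodes a collagen-binding glycoprotein and was the most abundant member in every group. It stood at 1345 and 1355 CPM at day 0, 3569.7 and 3638 CPM under DMSO and 3653 and 3624 CPM under 4-PBA. All day 4 libraries lay above both day 0 libraries and the DMSO and 4-PBA libraries overlapped. The log2 fold change from day 0 was 1.42 (SE 0.0256) under DMSO and 1.43 (SE 0.0256) under 4-PBA. Per kilobase it ranked 80th of 36520 genes at day 0 and 15th in both day 4 groups.

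Tenascin-C is a large adhesion-modulating protein of developing and injured tissue. Tnc stood at 746 and 755 CPM at day 0, 1492 and 1217 CPM under DMSO and 1185 and 1215 CPM under 4-PBA. Both day 4 groups lay above day 0, but the DMSO libraries differed from each other by a ratio of 1.23, the widest gap between DMSO replicates among the 8 members tested except Tgfbi. The log2 fold change from day 0 was 0.85 (SE 0.119) under DMSO and 0.68 (SE 0.118) under 4-PBA. Versican is a large chondroitin sulphate proteoglycan that binds hyaluronan. Vcan had the smallest difference among the members whose day 4 libraries all lay above day 0, with 385 and 398 CPM at day 0, 579 and 571 CPM under DMSO and 594 and 572 CPM under 4-PBA, a log2 fold change of 0.55 (SE 0.0297) and 0.58 (SE 0.0297).

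The thrombospondins split in direction. Thbs1 and Thbs2 form trimers and are known as activators or regulators of TGF-beta and matrix proteases, and Thbs4 and Comp form pentamers typical of tendon, muscle and cartilage matrix. Thbs1 stood at 620.3 and 628 CPM at day 0, 1516 and 1426 CPM under DMSO and 1372 and 1387 CPM under 4-PBA. Thbs2 stood at 521 and 531 CPM at day 0, 260.2 and 229.6 CPM under DMSO and 223 and 227 CPM under 4-PBA. Thbs1 was higher and Thbs2 lower in every day 4 library than in either day 0 library, with log2 fold changes of 1.24 (SE 0.0291) and -1.10 (SE 0.0458) under DMSO and of 1.14 (SE 0.0291) and -1.23 (SE 0.0460) under 4-PBA.

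At day 0 the trimeric pair was expressed at similar levels. The within-library ratio of Thbs1 to Thbs2 counts was 1.19 and 1.18 at day 0, 5.83 and 6.21 under DMSO and 6.16 and 6.12 under 4-PBA. All day 4 ratios lay above both day 0 ratios, and the DMSO and 4-PBA ranges overlapped. Thbs3, a thrombospondin that is not a member, had means of 19.0 CPM at day 0, 13.6 CPM under DMSO and 12.8 CPM under 4-PBA. It was named after its values were seen, and 318 of its exon bases overlap an antisense neighbour. The pentameric members, Thbs4 and Comp, stayed at the limit of detection. Thbs4 had 0 and 2 counts at day 0, 7 and 2 under DMSO and 1 and 2 under 4-PBA, and Comp had 5 and 4, 3 and 6, and 7 and 4. These genes did not pass the filter on low counts and were not tested. The highest upper 95% Poisson limit on the level in any library was 0.229 CPM for Thbs4 and 0.240 CPM for Comp. These limits bound the level in a single library, and differences between groups were not tested for these genes.

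Compared per kilobase of the longest protein-coding transcript, the order of levels changed with time. At day 0 Sparc (587 CPM per kb) was followed by Thbs1 (107), Tnc (106), Thbs2 (89.2), Vcan (31.5), Postn (4.10), Tgfbi (0.191), Comp (0.0331), Cilp (0.00686) and Thbs4 (0.00445). The libraries of Thbs1 and Tnc overlapped, as did those of Cilp and Thbs4, and the other neighbours did not. With DMSO the order was Sparc (1567), Thbs1 (252), Tnc (191), Postn (77.5), Vcan (46.3), Thbs2 (41.5), Cilp (13.1), Tgfbi (0.244), Comp (0.0266) and Thbs4 (0.0216), and only Comp and Thbs4 overlapped. Thbs2 moved from position 4 to 6, while Postn moved from 6 to 4 and Cilp from 9 to 7. The order under 4-PBA was that under DMSO, and there no neighbours overlapped. The place of Postn at day 4 depended on the length used: with the union of all its annotated exons (8702 bases against 3205 in the longest transcript) Postn stood below Vcan and Thbs2 in both day 4 groups.

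**Figure D2:**
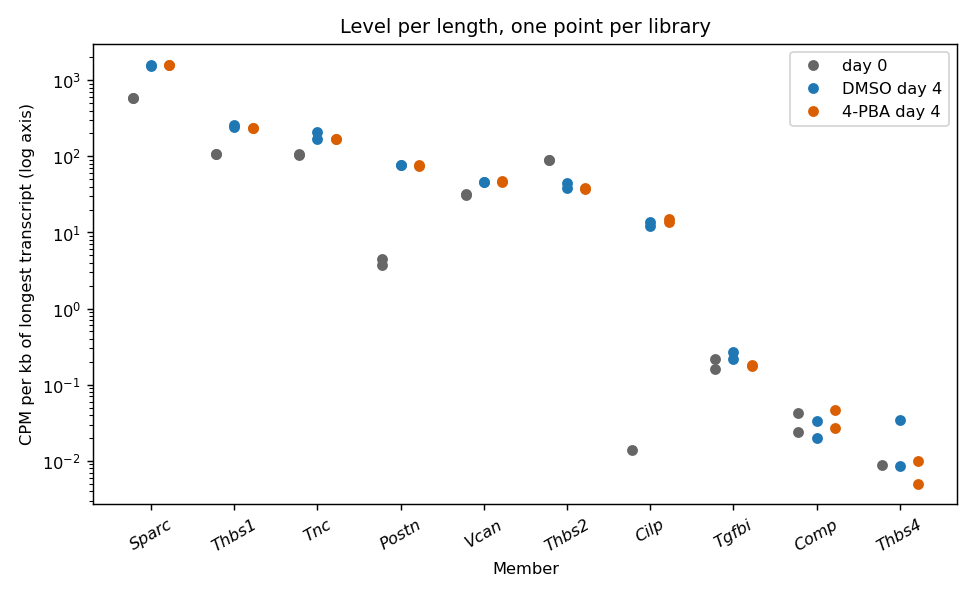
CPM per kb of the longest protein-coding transcript (y axis, log scale) for each member (x axis), 1 point per library and colour by group; libraries with 0 counts (Cilp and Thbs4 in day 0 replicate 1) are not drawn. Sparc, Thbs1 and Tnc lead in every group, and Tgfbi, Comp and Thbs4 stay below 0.3 CPM per kb.

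Upstream sequence is shown for the 2 members with the largest differences from day 0 (Cilp and Postn), for Tnc, which shares a sequence element with them, and for Thbs2, the member that was lower at day 4. RefSeq windows (GRCm38.p6) of the 250 bases before a transcription start matched 8 of the 10 members; Thbs1 and Comp had no entry. The windows were searched on both strands for the E-box (CANNTG, the element bound by MyoD and other basic helix-loop-helix factors), for the TATA-box forms TATAAA and, searched separately, TATATAA, for the SMAD-binding letters CAGAC, and for the CCAAT box. Capitals mark E-boxes, TATAAA and TATATAA, which overlap each other in Postn. The sequences run 5′ to 3′ on the strand of the gene and end 1 base before the start, from chr9:65264930-65265179 (plus strand) for Cilp, chr3:54360857-54361106 (plus) for the downstream of 2 Postn starts, chr4:64046937-64047186 (minus) for the downstream of 2 Tnc starts and chr17:14694263-14694512 (minus) for Thbs2.
Cilp: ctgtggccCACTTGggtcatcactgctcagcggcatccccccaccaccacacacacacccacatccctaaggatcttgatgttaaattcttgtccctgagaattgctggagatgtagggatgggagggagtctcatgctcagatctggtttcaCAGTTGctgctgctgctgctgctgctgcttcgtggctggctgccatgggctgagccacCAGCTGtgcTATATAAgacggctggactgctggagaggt
Postn: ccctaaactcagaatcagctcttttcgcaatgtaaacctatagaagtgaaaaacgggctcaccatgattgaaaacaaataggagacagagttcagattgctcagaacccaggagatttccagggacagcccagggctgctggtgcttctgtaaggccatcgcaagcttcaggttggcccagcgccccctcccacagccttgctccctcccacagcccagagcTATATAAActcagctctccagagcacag
Tnc: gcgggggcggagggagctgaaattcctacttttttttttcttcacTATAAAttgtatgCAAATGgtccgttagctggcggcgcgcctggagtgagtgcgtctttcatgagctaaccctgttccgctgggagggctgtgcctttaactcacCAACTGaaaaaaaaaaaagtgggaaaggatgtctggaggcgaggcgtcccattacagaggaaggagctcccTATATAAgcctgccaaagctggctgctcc
Thbs2: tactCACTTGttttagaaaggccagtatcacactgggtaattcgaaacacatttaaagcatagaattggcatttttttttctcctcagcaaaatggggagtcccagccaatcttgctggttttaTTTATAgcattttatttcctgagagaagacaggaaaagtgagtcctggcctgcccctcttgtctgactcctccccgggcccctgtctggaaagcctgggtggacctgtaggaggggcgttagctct

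TATATAA lay at -30 to -24 in Cilp, -28 to -22 in Postn and -29 to -23 in Tnc, counted from the start with the base before it as -1. The windows of the upstream starts of Postn and Tnc, not printed here, did not hold it. Neither did any window of the other 5 members, while 3.04% of 32851 windows of all genes did. TATAAA was in 12.4% of windows, and among those printed in Postn, Tnc and Thbs2 but not in Cilp. Cilp held 3 E-boxes, CACTTG at -242 to -237, CAGTTG at -97 to -92 and CAGCTG at -39 to -34. CAGCTG was also in Sparc, at -60 to -55, and is present in 13.0% of all windows. An E-box of any kind was in 66.2% of windows, and among those printed also in Tnc and Thbs2 but not in Postn. CAGAC was in 42.2% of windows, and among those printed in Tnc and Thbs2. CCAAT was in 33.8% of windows, and among those printed in Thbs2 alone. Windows not printed held CAGAC in Postn, Sparc, Tgfbi and Thbs4 and CCAAT in Vcan. The windows were also searched for the MEF2 core, as an exact sequence with no other letters allowed. That exact sequence was in 0.14% of all windows and in no window of a member. Variant forms of the MEF2 site were not searched, so whether a window of a member holds one was not tested. A match is a description of sequence, not evidence of binding.

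Over the 8 members that passed the filter on low counts, the median log2 fold change from day 0 was 1.04 under DMSO and 0.91 under 4-PBA, beside 0.023 and 0.018 over all 17433 genes tested. The libraries of the 2 groups did not overlap for 7 of the 8 members in either comparison, beside 81.9% of genes with DMSO and 81.8% with 4-PBA, and Tgfbi was the exception. Both comparisons use the same day 0 libraries, and since the members were chosen with this contrast known, nothing is read from these shares.

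**Figure D3:**
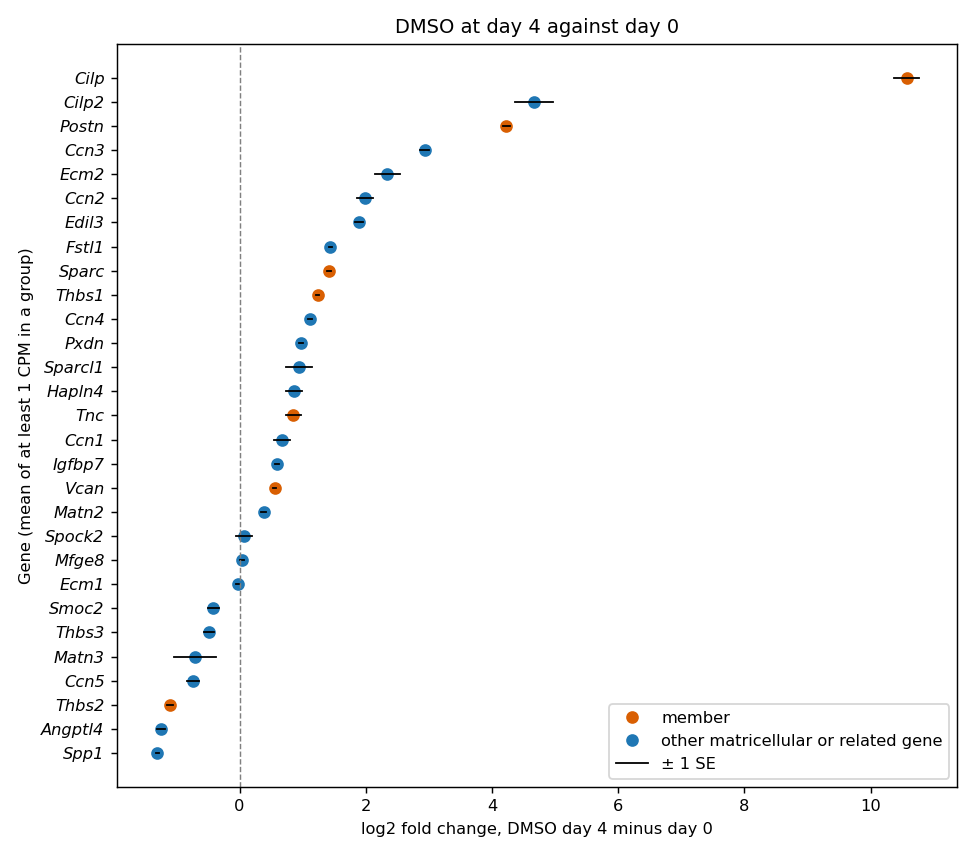
Log2 fold change between DMSO at day 4 and day 0 (x axis, bars ± 1 SE) for members (orange) and other matricellular or related genes (blue) with a mean of at least 1 CPM in 1 of these groups (y axis). Cilp stands apart at 10.57, followed by Cilp2 at 4.67 and Postn at 4.22, and Spp1 is lowest at -1.30.

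The other matricellular and related genes gave a backdrop for the members. Of 36 such genes 28 were tested, and between DMSO and day 0 edgeR called 14 higher and 6 lower at an adjusted p-value under 0.05, with a median log2 fold change of 0.39. Over all genes 66.3% were called, 33.8% higher and 32.6% lower. Between 4-PBA and day 0, 16 of the 28 were called higher and 7 were called lower, beside 65.6% of all genes called, 33.2% higher and 32.4% lower. Ccn3 (2.93, SE 0.0726, adjusted p 7.65e-26) and Ccn2 (1.99, SE 0.121, adjusted p 6.52e-04), of the CCN family of growth factor modulators, and Ecm2 (2.34, SE 0.194, adjusted p 1.24e-12) had the largest changes among called genes with at least 5 CPM. Spp1, which encodes osteopontin, fell by 1.30 (SE 0.0306, adjusted p 4.30e-26). Cilp2, the paralog of Cilp and singled out after its values were seen, had 6 and 10 counts at day 0 and 254 and 217 under DMSO. It rose by 4.67 (SE 0.296, adjusted p 4.31e-16), to 3.48 CPM against 54.2 CPM for Cilp.

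Of the receptors and binding partners of these proteins, 14 of 22 tested genes were called higher and 5 lower under DMSO. The shares of all genes were 33.8% and 32.6%, as above, and whether the list differs from other genes was not tested. Cd36, a thrombospondin receptor and fatty acid transporter, rose by 5.54 on the log2 scale (SE 0.215, adjusted p 2.78e-22), to 9.48 CPM from 0.187, Itga11, a collagen-binding integrin chain, by 3.27 (SE 0.0851, adjusted p 2.07e-27), and Sdc2, a heparan sulphate proteoglycan, by 1.55 (SE 0.0294, adjusted p 2.08e-31). On the versican side, 7 of 11 tested genes for hyaluronan synthases and versican-cleaving or related proteases were called higher and 2 were called lower. Adamts4 rose from 20.1 to 123 CPM, Adamts5 from 17.1 to 90.1 CPM and Adamts15 from 0.343 to 9.92 CPM, proteases known to cut versican, with adjusted p-values between 2.93e-30 and 6.02e-23. The hyaluronan synthases Has1, from 58.1 to 28.1 CPM, and Has2, from 57.3 to 30.9 CPM, were the 2 genes called lower. They were named for that after their values were seen. Htra1 was also lower, at 156 against 164 CPM, and was called by DESeq2 but not by edgeR or limma-voom. Of 17 TGF-beta ligands, receptors and related genes, 12 were called higher and 2 were called lower, led by Igf1 (4.69, SE 0.127), Tgfbr2 (1.65, SE 0.0322) and Tgfb3 (1.45, SE 0.0350). In GENCODE M21 exons of Ccn2, Adamts4, Has2, Tgfb3, Ddr2 and Des share bases with an antisense neighbour, as do 208 exon bases of Thbs1 and 176 of Tnc, and those of Spp1 and Ecm1 with a neighbour on their own strand. The counts of these genes are uncertain by what such neighbours contribute.

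Whether the drug altered these genes during differentiation is asked by setting 4-PBA against its vehicle at day 4, and the title of the series names extracellular matrix genes. edgeR called 0 of the 8 members tested, beside 4.90% of all genes (2.13% higher and 2.78% lower). At an unadjusted p-value under 0.05, 3 members differed, Cilp higher and Thbs1 and Thbs2 lower, beside 16.7% of all genes. The DESeq2 Wald test called 0 members, and limma-voom called Thbs1. In 5 members (Postn, Tnc, Thbs1, Thbs2 and Tgfbi) both 4-PBA libraries lay below both DMSO libraries, beside 45.5% of genes with groups that did not overlap in either direction. The median log2 fold change of the 8 members was -0.058, beside 0.0021 over all genes.

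Thbs1 came closest to the threshold. Its 4-PBA libraries (1372 and 1387 CPM) lay below its DMSO libraries (1516 and 1426 CPM), with a log2 fold change of -0.093 (SE 0.0286, 95% interval -0.15 to -0.035, edgeR adjusted p 0.0514). Thbs2 followed at -0.12 (SE 0.0458, interval -0.22 to -0.024, adjusted p 0.176). The within-library ratio of the pair, given above, overlapped between DMSO and 4-PBA. Cilp stood at 0.15 (SE 0.0673, interval 0.011 to 0.29, adjusted p 0.253), with 1 of 2 4-PBA libraries above both DMSO libraries.

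Tnc stood at -0.17 (SE 0.118, interval -0.54 to 0.19, adjusted p 0.610). Its 4-PBA libraries lay close to DMSO replicate 2 and well below DMSO replicate 1. Tgfbi stood at -0.42 with a wide interval of -1.19 to 0.35 (adjusted p 0.651), as its low counts allow. For the most precisely measured members the intervals were narrow: -0.037 to 0.065 for Sparc (adjusted p 0.861), -0.039 to 0.081 for Vcan (adjusted p 0.812) and -0.12 to 0.073 for Postn (adjusted p 0.880).

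**Figure D4:**
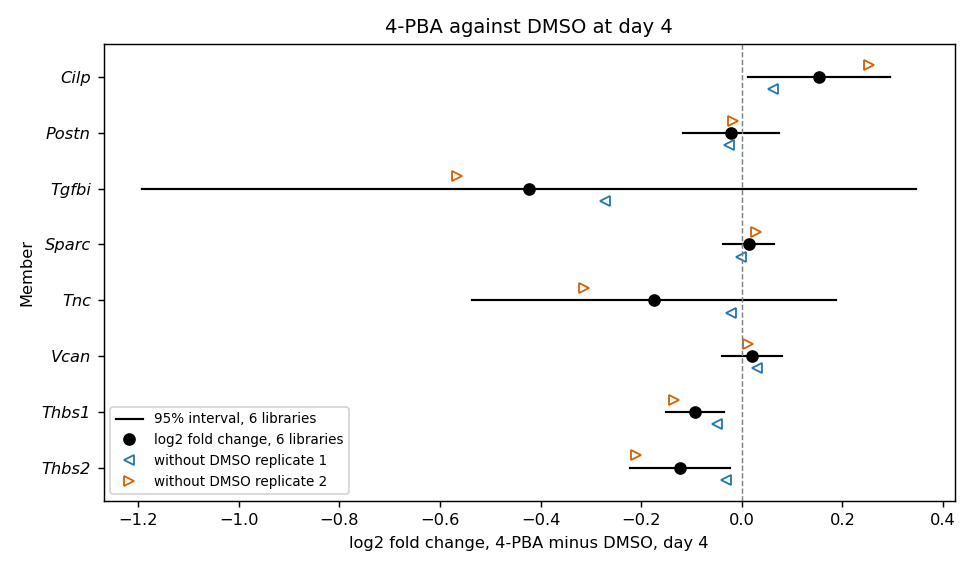
Log2 fold change between 4-PBA and DMSO at day 4 (x axis) for the 8 members tested (y axis): black points with 95% intervals use all 6 libraries, and open triangles leave out DMSO replicate 1 (blue) or 2 (orange). The values of Cilp, Tnc, Thbs1 and Thbs2 move away from 0 without DMSO replicate 2 and towards 0 without DMSO replicate 1.

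The calls depended on DMSO replicate 2. Without it, edgeR called 4 members, Tnc (-0.31, adjusted p 9.01e-19), Thbs2 (-0.21, adjusted p 1.95e-07), Thbs1 (-0.14, adjusted p 6.54e-05) and Cilp (0.25, adjusted p 0.00499). Without DMSO replicate 1 none was called, and the values were -0.021 for Tnc, -0.032 for Thbs2, -0.049 for Thbs1 and 0.062 for Cilp. The lone DMSO library is assumed in these fits to vary like the other groups. For Tnc, Thbs2 and Cilp the gap between the 2 DMSO libraries, ratios of 1.23, 1.13 and 1.14, was of the size of the difference between the groups or larger. For Thbs1 the gap, a ratio of 1.06, was also of about the size of its group difference (-0.093 on the log2 scale).

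Among the other matricellular and related genes edgeR called 5 of 28 between 4-PBA and DMSO, beside 4.90% of all genes tested. Ccn3 (0.40, SE 0.0565, adjusted p 2.33e-05) and Fstl1 (0.12, SE 0.0268, adjusted p 0.00319) were higher. Spp1 (-0.29, SE 0.0302, adjusted p 3.03e-07), Ccn4 (-0.13, adjusted p 0.00467) and Ecm1 (-0.13, adjusted p 0.0115) were lower. Of the 22 receptors and binding partners tested, edgeR called 5. Sdc2 (0.13, adjusted p 0.00437) and Itgb8 (0.26, adjusted p 0.0400) were higher. Lrp1 (-0.13, adjusted p 0.00344), Ddr2 (-0.14, adjusted p 0.00344) and Cd44 (-0.12, adjusted p 0.00774) were lower. Itgb8 was also called by limma-voom but not by DESeq2, and both of these tools called Calr, which edgeR did not. None of the 11 hyaluronan and protease genes was called by edgeR, DESeq2 or limma-voom. With edgeR 3 of them had an unadjusted p under 0.05, beside 16.7% of all genes. In the list of 17 TGF-beta genes and related readouts, edgeR called Igf1, an insulin-like growth factor, higher (0.39, adjusted p 0.00127), as did DESeq2 and limma-voom. It also called Smad2 higher (0.14, adjusted p 0.0408) and Skil lower (-0.13, adjusted p 0.0407), but neither other tool did, and they were called under 6 and 5 of 14 alternatives. Ccn4, Ecm1, Itgb8, Cd44 and Calr fall outside the naming rule and were named after their values were seen. Whether these lists differ from other genes was not tested.

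By the distance between centred log2 CPM profiles over the 6 libraries, the genes most like Cilp were Myl2 (root mean square difference 0.556), Myh8 (0.976), Myoz2 (1.198), Dhrs7c (1.34) and Scn4a (1.36), which encode myosin, sarcomere, sarcoplasmic reticulum and sodium channel proteins of muscle. These 5 were picked by their values in all 6 libraries, so their differences between 4-PBA and DMSO are given only as a description. The log2 fold change was -0.31 for Scn4a, and the other 4 had values between -0.10 and 0.22. Like Cilp, all 5 were near 0 at day 0, with means between 0.00712 and 0.180 CPM, a likeness that follows from how they were picked. The nearest gene was Cbfa2t3 for Postn (0.0707), Mef2a for Sparc (0.0157), Chst3 for Tnc (0.0499), Klhl30 for Thbs1 (0.0216), Rps6ka2 for Thbs2 (0.0318), Cyp3a13 for Tgfbi (0.0901) and Ankrd1 for Vcan (0.0125).

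The labelled cell type was checked against lists of markers. All 8 myogenic markers were detected. Their summed level was 1099 to 1107 CPM at day 0, 6843 to 7105 CPM under DMSO and 6620 to 6738 CPM under 4-PBA. From day 0 to DMSO, edgeR called 7 of them higher and Myf5 lower (50.2 to 22.9 CPM), beside 33.8% and 32.6% of all genes. With 4-PBA against DMSO, 3 of the 8 had values above 0 and 5 below. edgeR called 2 of the 8, beside 4.90% of all genes. These were Des and Acta1, both lower (-0.11, adjusted p 0.00881, and -0.094, adjusted p 0.0450). Summed markers of macrophages reached at most 6.11 CPM, with Cd68 alone above 1 CPM, and those of endothelial cells and adipocytes stayed under 1 CPM. Because several members are typical of connective tissue, markers of tendon, cartilage and other mesenchymal cells were also read. Of 4 tendon markers Scx alone was above 1 CPM, at 78.1 CPM at day 0, 135 under DMSO and 147 under 4-PBA, and Kera was at 0 in all libraries. Scx was higher under 4-PBA than with DMSO by edgeR (0.13, adjusted p 0.0423) but not by DESeq2 or limma-voom, and it was called under 5 of 14 alternatives, as was Acta1. Of 6 cartilage markers Sox9 and Col11a2 were above 1 CPM, and Sox9 was lower under 4-PBA than with DMSO (109 against 131 CPM, -0.27, adjusted p 5.76e-06). The summed mesenchymal markers ran from 210 to 216 CPM at day 0. They stood at about 374 CPM under DMSO and ran from 386 to 390 CPM under 4-PBA. Most of the sum was Ly6a, with means of 162 CPM at day 0, 315 under DMSO and 323 under 4-PBA. Between DMSO and day 0 edgeR called 4 of the 5 markers higher and Pdgfra lower (11.1 against 13.9 CPM). The shares of all genes called were 33.8% higher and 32.6% lower. The part of these markers in the members' values was not tested.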

How the data were processed

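RNA sequencing libraries of C2C12 cells (3 groups, 2 libraries each) were read from 1 deposited table of counts per gene symbol. Per the labels, DNase-treated total RNA went into a directional library kit; per the submitters' processing notes the genome build was GRCm39. The aligner, counting tool, annotation and use of strand are not given in the sources used here. The authors deposited raw counts, neither normalised nor pooled, and 0 columns belonged to no sample.

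The tests used R 4.3.3 and edgeR 4.0.16, with filterByExpr (minimum count 10), which kept 17433 genes, TMM, estimateDisp, robust glmQLFit over all 6 libraries with a mean per group (3 residual degrees of freedom), and quasi-likelihood F tests with Benjamini-Hochberg adjustment over all genes tested, called under 0.05. SE is the log2 fold change divided by the square root of F. Relabelling 2 against 2 libraries cannot give a two-sided p below 0.333, so calls rest on a spread shared across genes. Replicates differed by more than sampling noise (chi-square per degree of freedom 3.98 to 7.15).

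Lengths and exon overlaps came from GENCODE M21 (GRCm38), by symbol, for 16457 of the tested genes; no coordinates were joined to the counts. The members and lists were chosen with earlier results of these data known. Named genes were the members; per list the 3 smallest adjusted p-values between 4-PBA and DMSO and the 3 largest called changes between DMSO and day 0 with at least 5 CPM; and the nearest genes to each member (5 for Cilp, 1 for each other) by log2 CPM with prior count 2. Alternatives were DESeq2 1.42.0 size factors and Wald test, library size only, limma-voom (limma 3.58.1), no filter beyond 1 count, at least 10 counts in each library of 1 group, fits of the 4 libraries compared, a replicate block, leaving out each library, prior count 0.5 and, chosen after seeing the data, exon-union lengths. The pipeline was tested on simulated data.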

Additional observations from a re-analysis of the deposited data

How the results depend on the processing

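Between 4-PBA and DMSO 855 genes were called, and leaving out single libraries gave from 295 to 1194, with 341 and 295 without 4-PBA replicates 1 and 2. Members called lower with 4-PBA (0) numbered 2 (Thbs1 and Thbs2) with no filter beyond 1 count, and 1 (Thbs1) with limma-voom or where each library of a group needed 10 counts. Over single left-out libraries they ranged from 0 to 3, and members called higher from 0 to 1. The adjusted p of Thbs1 ranged from 6.54e-05 to 0.414 over 14 alternatives, 4 of which called it. The called share that was higher moved from 43.4% to 51.5% of calls with library size only. The sign of Sparc turned without DMSO replicate 1 (-9.58e-04) and that of Vcan without 4-PBA replicate 1 (-0.0057). Of the other named genes Ccn2, uncalled at 0.044, was called at -0.093 without DMSO replicate 2 and at 0.20 without DMSO replicate 1. The causes were not tested.

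The log2 fold change of Cilp between DMSO and day 0 was 9.84 without day 0 replicate 1 and 14.72 without day 0 replicate 2, which leaves no day 0 count. Of the 5 genes nearest to Cilp, 4 were shared with prior count 0.5.

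Same-numbered libraries did not deviate together (correlation of replicate differences across genes -0.028, -0.0031 and -0.012 for the 3 pairs of groups), so the replicate numbers were not taken as pairs. With the replicate block edgeR called 768 genes between 4-PBA and DMSO, 11403 between DMSO and day 0 and 11309 between 4-PBA and day 0, and 0 members between 4-PBA and DMSO, as without it. Counts were lowest, and counting error largest, for Tgfbi, Thbs4, Comp and day 0 Cilp.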
